A study of Danio rerio with 6 samples.

Results

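The troponin I and troponin C genes described here are 9 genes found by their listed names in the gene table of a zebrafish embryo RNA-seq study: *tnni1al*, *tnni1b*, *tnni2a.1*, *tnni2a.4*, *tnni2b.1* and *tnni2b.2* for troponin I, and *tnnc1a*, *tnnc1b* and *tnnc2* for troponin C. All 9 were present among the 30111 genes of the table. Of these, the 27018 not listed as lncRNAs are called mRNAs here, although they include the microRNA locus *mir1-1*. The rest are annotated lncRNAs. Whole wild-type embryos of the AB strain were sequenced at 3 ages in hours after fertilization (hpf), 10 hpf for T1, 24 hpf for T2 and 36 hpf for T3, with no treatment at any stage and 2 libraries per stage. The embryos of each stage were divided at random into 2 groups for these libraries, so the p-values measure the spread between 2 libraries of a stage, which may be technical. The deposited unit is RPKM, a read count scaled to exon length and library depth, which allows levels of different genes to be compared per length.

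Troponin is the calcium switch of the striated muscle thin filament. Troponin C binds calcium, troponin I holds back the interaction of actin with myosin until calcium is bound, and troponin T anchors the complex to tropomyosin. Vertebrates carry separate genes for the slow skeletal, fast skeletal and cardiac forms. In mammals the slow troponin I gene is also used by the embryonic heart, and slow skeletal muscle and heart share 1 troponin C gene. In the zebrafish embryo, slow muscle fibres arise next to the notochord and fast fibres form the bulk of each somite.

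Of the 9 genes, 7 were called higher from T1 to T2 (limma adjusted p under 0.05, over 2-fold), against 12.8% of all mRNAs. The troponin I genes then parted. *tnni2b.1* was the most abundant troponin I mRNA at T1 and T2 and fell by T3, whereas *tnni2a.4* rose at both steps and held most of the troponin I RPKM at T3. *tnni2b.2*, which lies next to *tnni2b.1*, stayed low at T2 and rose only between T2 and T3. *tnni1al* had no read at T1 and rose at both steps, *tnni1b* rose once, and *tnni2a.1* was near the detection floor at all stages. Among the troponin C genes, *tnnc1b* and *tnnc2* were abundant at T2 and T3 and *tnnc1a* was far lower.

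Reads in genes ranged from 43611332 to 51846237 per library, and 100% of the values were whole multiples of 1 read within a tolerance of 0.01. A floor of 3 reads therefore corresponds to 0.0579 to 0.0688 RPKM for a 1 kb gene, and it covers counting error only. The T1 libraries differed more from each other than those of later stages: 279 of 11894 well expressed genes were at least 2-fold apart at T1, 6 at T2 and 9 at T3. Markers of slow fibres were higher in T1 replicate 1 for 6 of 6 genes, with summed levels of 73.4 and 32.9 RPKM in replicates 1 and 2, as were 5 of 5 neuron, 4 of 4 endothelial and 3 of 3 epidermal markers and 8 of 9 thin filament actins and tropomyosins. Of 10 fast fibre markers 4 were higher in replicate 1, and their sums of 36 and 88.5 RPKM differed through *tnnt3b* (24.9 and 77.1 RPKM), without which they were 11.1 and 11.4 RPKM. Nearer an even split were 4 of 7 heart markers, 10 of 18 calcium release, 3 of 6 calmodulin, 4 of 8 troponin T and 3 of 7 other troponin I genes. Higher in replicate 1 were also 4 of 5 red blood cell markers, 7 of 10 myogenic regulators and 7 of 9 thin filament length and capping genes. The share over all genes is not given here, and the endothelial sums were only 2.27 and 0.653 RPKM. Since whole embryos were used, a larger number of muscle cells and more mRNA per muscle cell cannot be told apart.

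**Figure D1:**
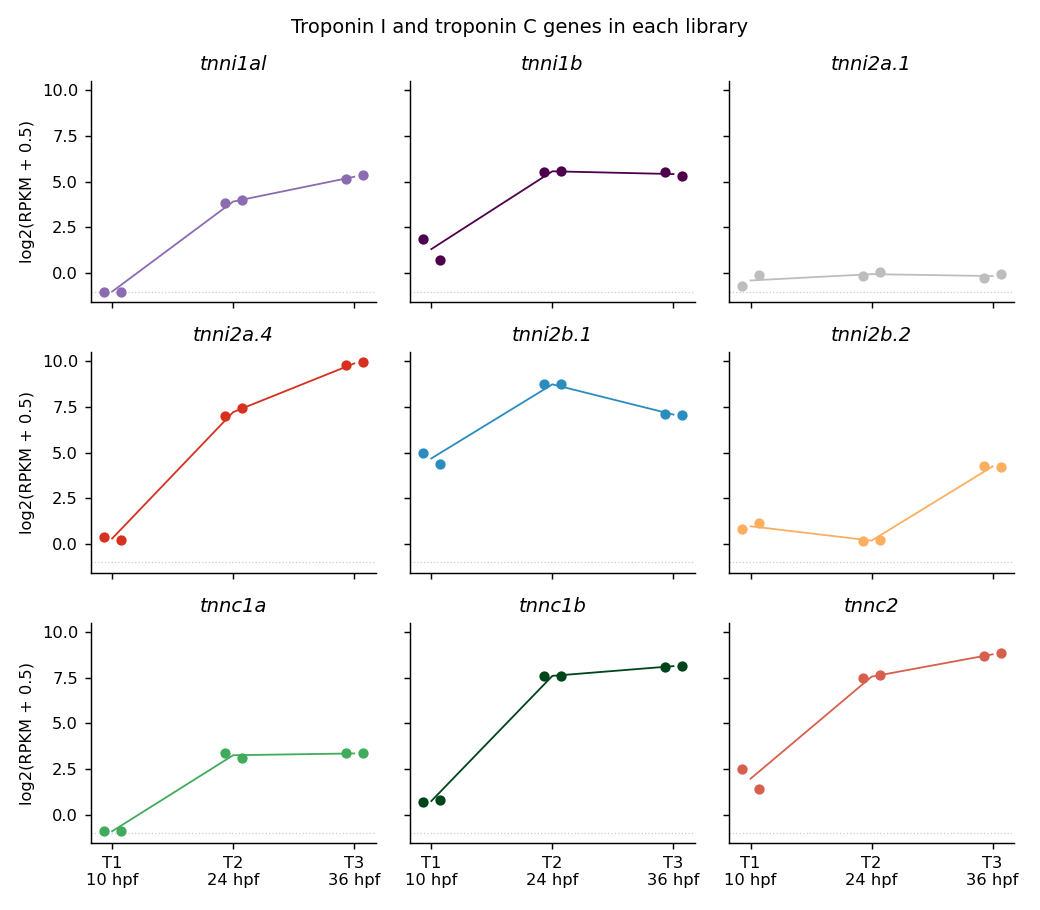
Level of each gene in each library, as log2(RPKM + 0.5) on the vertical axis against stage (T1, 10 hpf; T2, 24 hpf; T3, 36 hpf). Each point is 1 library, lines join the stage means, and the dotted line is the value of a gene with no read; *tnni2b.1* peaks at T2, *tnni2b.2* is low at T1 and T2 and highest at T3, and the changes of *tnni1b* and *tnnc1a* from T2 to T3 did not pass the test.

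The gene listed as *tnni1al* lies on the plus strand of chromosome 25, from 20090074 to 20096523 in GRCz11, with 8 exon blocks and 869 bp of exon. Its name places it with the slow skeletal troponin I genes, while the newer RefSeq annotation calls the same gene *tnni4b.2*. It is a member for which the study designed qPCR primers, shown here because they mark the transcript that the study itself followed. Both are printed 5′ to 3′ in lower case.

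tnni1al forward primer: tgagtcccagagacccaaatc

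tnni1al reverse primer: gggactctttcagccaaggt

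No read of *tnni1al* was counted in either T1 library, where the floor of 3 reads was 0.0792 RPKM in replicate 1 and 0.0762 RPKM in replicate 2. The level was 13.8 and 15.4 RPKM in the T2 libraries (585 and 644 reads) and 35.1 and 41.1 RPKM in the T3 libraries (1504 and 1850 reads). The 3 stages did not overlap. Taking the lowest library of each later stage against the higher of the T1 floors, *tnni1al* was at least 174-fold higher at T2 and at least 443-fold higher at T3. Its log2 fold change between T2 and T3, both well above the floor, was 1.35 (SE 0.09, limma adjusted p = 0.000178, n = 2 per stage), and both steps passed the test.

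*tnni1b*, a slow skeletal type troponin I gene, lies on the minus strand of chromosome 6 from 54806935 to 54826061, with 9 exon blocks and 936 bp of exon. Its level was 3.21 and 1.18 RPKM at T1, 46 and 47.7 RPKM at T2, and 44.8 and 39.6 RPKM at T3. The T1 libraries lay apart from each other by more than 2-fold and below all later ones. The rise from T1 to T2 was 4.25 on the log2(RPKM + 0.5) scale (SE 0.38, limma adjusted p = 0.00265). From T2 to T3 the change was -0.15 (SE 0.08, adjusted p = 0.153), which did not pass. The slow fibre marker sums had the same order, with 566 and 584 RPKM at T2 and 508 and 521 RPKM at T3. Of these sums, *smyhc1* made up 342 and 327 RPKM at T2 and 267 and 290 RPKM at T3. From T2 to T3, 0 of the 6 genes were called, where 4.03% of all mRNAs were called higher and 2.11% lower. Their median log2 change was -0.07, against -0.08 over all mRNAs tested. The sums of 7 heart markers were 139 and 145 RPKM at T2 and 123 and 113 RPKM at T3, and the part of either tissue in the *tnni1b* level was not tested.

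The tnni2 genes encode fast skeletal troponin I. *tnni2a.1* and *tnni2a.4* lie in that order on the plus strand of chromosome 25, from 31222069 to 31236549 and from 31277415 to 31288725. *tnni2b.2* and *tnni2b.1* lie on the plus strand of chromosome 7, from 39387082 to 39392865 and from 39401388 to 39406765. Each of these 4 genes has 7 exon blocks. No exon of the 9 genes overlaps an exon of another listed gene or transcript. The sources used here do not say how reads that match several close copies were counted, so a division of reads between neighbouring copies is uncertain.

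*tnni2b.1* was the leading troponin I mRNA of the 2 earlier stages. It measured 30.6 and 20.6 RPKM at T1, 421 and 422 RPKM at T2, and 135 and 133 RPKM at T3, so that the stages did not overlap and T2 stood highest. The rise from T1 to T2 was 4.04 on the log2 scale (SE 0.20, limma adjusted p = 0.000801). The fall from T2 to T3 was -1.65 (SE 0.06, adjusted p = 2.34e-05), and the T3 level stayed above that of T1 by 2.39 (SE 0.21, adjusted p = 0.00125). It was the only one of the 9 genes called lower at any step. From T2 to T3, where *tnni2b.1* fell, 10 of 10 fast fibre markers were called higher, against 4.03% of all mRNAs. The cause of this difference was not tested.

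*tnni2a.4* measured 0.805 and 0.672 RPKM at T1, 125 and 174 RPKM at T2, and 879 and 984 RPKM at T3. Those values rest on 30 and 26 reads at T1 and on 37051 and 43551 reads at T3, and each stage lay wholly above the one before. The log2 change was 6.91 from T1 to T2 (SE 0.19, limma adjusted p = 0.000247) and 2.65 from T2 to T3 (SE 0.15, adjusted p = 0.000116). Over the whole interval the change was 9.55 (SE 0.12, adjusted p = 4.87e-05), larger than that of the other 8 in this fit, where *tnni1al* has only a bound. The 10 fast fibre markers in the table were also called higher at both steps, 10 of 10 each time, against 12.8% and 4.03% of all mRNAs. The marker sums were 3427 and 4253 RPKM at T2 and 15973 and 16797 RPKM at T3. The part of fast fibres in the *tnni2a.4* level was not tested.

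*tnni2b.2*, the neighbour of *tnni2b.1*, had a late pattern. Its level was 1.26 and 1.7 RPKM at T1, 0.64 and 0.649 RPKM at T2, and 18.6 and 18.3 RPKM at T3, with 24 reads in each T2 library. Its T2 values lay below both T1 values and its T3 values far above both. The rise from T2 to T3 was 4.05 on the log2 scale (SE 0.08, limma adjusted p = 7.27e-06). The change from T1 to T2 was -0.78 (SE 0.18, adjusted p = 0.0287), short of the 2-fold threshold. It was called lower there with a pseudocount of 0.1 (-1.07), with the libraries centred on their medians (-1.12) and after quantile normalization (-1.16). With limma voom on recovered reads the change was -1.17 but was not called (adjusted p = 0.0745).

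*tnni2a.1* differed from the other tnni2 genes in being at the edge of detection. It had 0.11 and 0.452 RPKM at T1, 0.393 and 0.549 RPKM at T2, and 0.341 and 0.464 RPKM at T3, from 4 to 22 reads per library. The stages overlapped. No comparison was called, and the log2 change was 0.34 from T1 to T2 (SE 0.25, limma adjusted p = 0.323) and -0.10 from T2 to T3 (SE 0.14, adjusted p = 0.565). With so few reads, differences of this size were not detectable at this depth.

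Taken as shares of the summed RPKM of the 6 troponin I genes, the leading gene changed between T2 and T3. *tnni2b.1* made up 85.1% and 83.7% at 10 hpf, 69.4% and 63.9% at 24 hpf, and 12.1% and 10.9% at 36 hpf. The share of *tnni2a.4* was 2.24% and 2.74% at 10 hpf, 20.6% and 26.4% at 24 hpf, and 79% and 80.9% at 36 hpf. Neither gene's shares overlapped between any stages, and the shares of these genes crossed between 24 and 36 hpf.

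Despite this exchange, the tnni2 genes together held a similar share at both later stages, 90.3% ± 0.21 (SD, n = 2) at T2 and 93.1% ± 0.38 (SD, n = 2) at T3. The T2 libraries were at 90.2% and 90.5% and the T3 libraries at 92.8% and 93.4%, so that the values did not overlap although they lay close. An exact permutation test of 2 libraries against 2 cannot give a p below 0.333, so it was not able to pass a threshold of 0.05. Among the genes listed under tnni1 names, *tnni1b* held 7.58% and 7.22% at T2 and 4.03% and 3.26% at T3. The share of *tnni1al* was 2.26% and 2.33% at T2 and 3.15% and 3.38% at T3. With the other 7 troponin I genes in the table added to the sum, all tnni2 genes held 83.8% at T2 and 88.8% at T3. These shares also count *tnni2a.2* and *tnni2a.3*, which are not members. Both shares lay below those of the 6 genes mainly through *tnni1c*, with 47.1 and 49.4 RPKM at T2. The T3 levels of *tnni1c* were 57.5 and 50.3 RPKM.

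**Figure D2:**
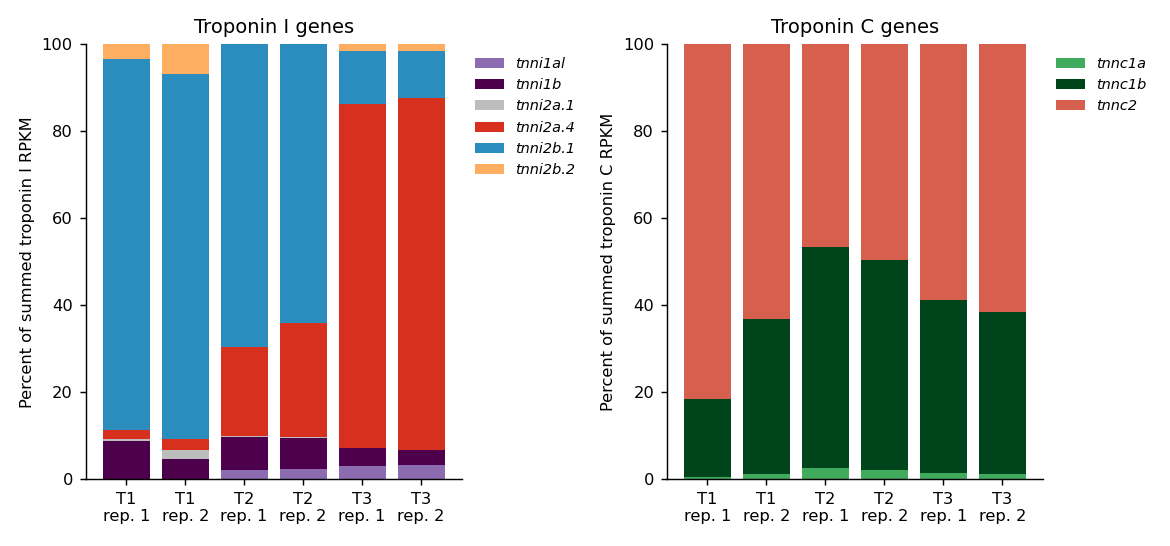
Percent of the summed RPKM of the 6 troponin I genes (left) and of the 3 troponin C genes (right) held by each gene, with 1 bar per library. The *tnni2b.1* share falls from 69.4% and 63.9% at T2 to 12.1% and 10.9% at T3 as that of *tnni2a.4* rises to 79% and 80.9%, while *tnnc1b* and *tnnc2* divide nearly all of the troponin C.

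Ratios of paralogs were also taken within each library. Library scaling cancels in them apart from the 0.5 added to each level. The added 0.5 draws the levels of a pair together where the lower gene is near that value. This held for *tnni2b.2* at T2 and for *tnni2a.4* at T1. The log2 ratio of *tnni2a.4* to *tnni2b.1*, each with 0.5 added, was -4.58 and -4.17 at 10 hpf, -1.75 and -1.27 at 24 hpf, and 2.70 and 2.89 at 36 hpf. It rose at each stage and changed sign between T2 and T3. For the neighbouring genes *tnni2b.1* and *tnni2b.2* the log2 ratio was 4.15 and 3.26 at 10 hpf, 8.53 and 8.52 at 24 hpf, and 2.82 in both libraries at 36 hpf, so it was widest at T2. *tnni1al* lay below *tnni1b* at T2, with log2 ratios of -1.71 and -1.60, and level with it at T3, with -0.35 and 0.05. Over 10 such pairs and 30 stage comparisons, 29 exact permutation tests (two-sided) gave the smallest p the design allows, 0.333, and no adjusted value can be lower.

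**Figure D3:**
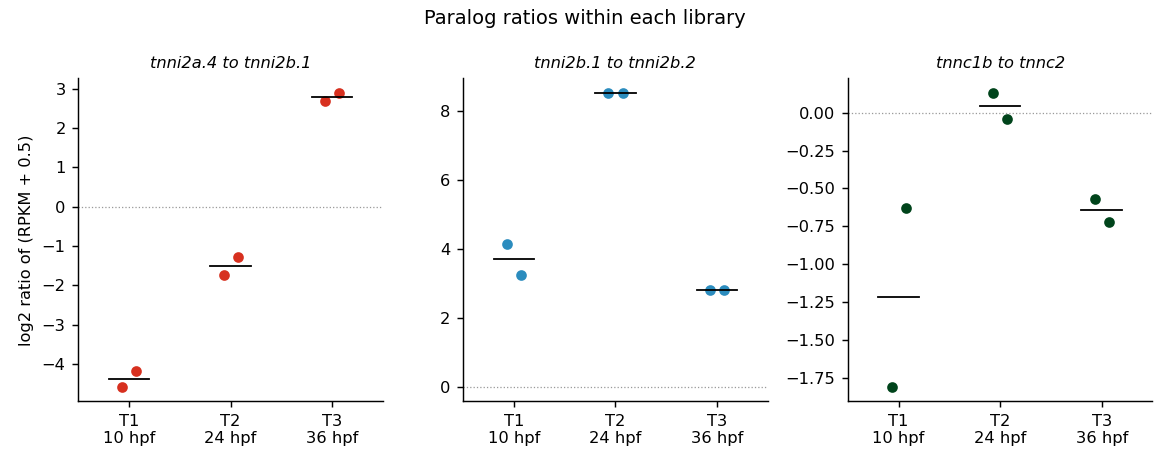
Log2 ratio of (RPKM + 0.5) of 3 paralog pairs on the vertical axis against stage, with 1 point per library and a bar at the mean of the 2 libraries; the dotted line marks equal levels. *tnni2a.4* passes *tnni2b.1* between T2 and T3, and the vertical scales of the panels differ.

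The troponin C genes all lie on the plus strand of chromosome 23, each with 6 exon blocks. *tnnc1a*, the cardiac troponin C gene of zebrafish, spans 4890716 to 4895876, with 1066 bp of exon. It had 2 reads in each T1 library (0.043 and 0.0414 RPKM), 10.1 and 8.22 RPKM at T2, and 9.79 RPKM in both T3 libraries. The T2 and T3 values overlapped and both lay far above T1. Scaled to depth and pooled over the libraries of a stage, *tnnc1a* was 217 times its T1 level at T2 (95% counting interval 84.5 to 799) and 232 times at T3 (90.3 to 853). In limma the rise from T1 to T2 passed (adjusted p = 0.000581), and the change from T2 to T3 was 0.10 on the log2 scale (SE 0.10, adjusted p = 0.468). Of the 7 heart markers 1 was called over that step, the natriuretic peptide gene *nppa*, which was higher at T3. Over all mRNAs, 4.03% were called higher and 2.11% lower. The part of the heart in the *tnnc1a* level was not tested.

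*tnnc1b*, a slow type troponin C gene, spans 20110173 to 20112588 with 779 bp of exon. Its level was 1.15 and 1.25 RPKM at T1, 192 and 194 RPKM at T2, and 275 and 283 RPKM at T3. The stages were fully separate and the libraries of each stage lay close together. The log2 change was 6.84 from T1 to T2 (SE 0.11, limma adjusted p = 0.000101). The further change from T2 to T3, 0.53 (SE 0.06, adjusted p = 0.000931), had a small p but was under 2-fold, so it was not called.

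*tnnc2*, the fast skeletal troponin C gene, spans 20422675 to 20427296 and is named *tnnc2.2* in the newer RefSeq annotation. The length of 2932 bp used for its RPKM also counts exons on an unplaced scaffold, while the chromosomal exons come to 1466 bp. Its level would therefore be 2-fold higher if the length of 1 copy were used. Of the 30111 genes, 5840 have exons on more than 1 sequence, so levels of other genes may be too low in this way. The lengths of list genes, among them the slow fibre markers, are not given here. As deposited *tnnc2* was at 5.27 and 2.21 RPKM at T1, 176 and 199 RPKM at T2, and 408 and 467 RPKM at T3. All T3 values lay above all T2 values, and these above both T1 values, which were more than 2-fold apart. Fold changes do not depend on the length, apart from the pseudocount: the log2 change was 5.57 from T1 to T2 (SE 0.36, limma adjusted p = 0.00143) and 1.22 from T2 to T3 (SE 0.09, adjusted p = 0.000238).

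Of the summed troponin C RPKM, *tnnc1b* made up 17.8% and 35.7% at 10 hpf, 50.8% and 48.4% at 24 hpf, and 39.7% and 37.2% at 36 hpf. The rest was nearly all *tnnc2*, since *tnnc1a* held 2.67% and 2.05% at T2 and 1.41% and 1.29% at T3. With the chromosomal length for *tnnc2*, the *tnnc1b* share was 34.7% and 32.3% at T2 and 25% and 23% at T3. On both lengths it was higher in each T2 library than in each T3 library, whereas at T2 *tnnc2* was ahead in both libraries on the chromosomal length and, on the deposited length, behind *tnnc1b* in replicate 1 (46.5%) and ahead in replicate 2 (49.6%).

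At T1 the order of mean levels was *tnni2b.1* with 25.6 ± 7.1 RPKM (SD, n = 2), then *tnnc2* with 3.74 ± 2.2 RPKM and *tnni1b* with 2.19 ± 1.4 RPKM. The libraries of *tnni1b* overlapped with those of *tnnc2*, although *tnnc2* was the higher within each library. They also overlapped with those of the next genes, *tnni2b.2* (1.48 ± 0.31 RPKM) and *tnnc1b* (1.2 ± 0.07 RPKM). Below them came *tnni2a.4* (0.739 ± 0.094 RPKM), *tnni2a.1* (0.281 ± 0.24 RPKM), *tnnc1a* and *tnni1al*. At T2 *tnni2b.1* led with 422 ± 0.13 RPKM, followed by *tnnc1b* with 193 ± 1.4 RPKM and *tnnc2* with 188 ± 16 RPKM, which overlapped, and by *tnni2a.4* with 150 ± 35 RPKM. The lower genes at T2 did not overlap with each other: *tnni1b* (46.8 ± 1.1 RPKM), *tnni1al* (14.6 ± 1.1 RPKM), *tnnc1a* (9.16 ± 1.3 RPKM), *tnni2b.2* (0.645 ± 0.0066 RPKM) and *tnni2a.1* (0.471 ± 0.11 RPKM). At T3 the order was *tnni2a.4* (931 ± 74 RPKM), *tnnc2* (437 ± 42 RPKM), *tnnc1b* (279 ± 5.5 RPKM) and *tnni2b.1* (134 ± 1.6 RPKM), none of which overlapped, and *tnni1b* (42.2 ± 3.7 RPKM) and *tnni1al* (38.1 ± 4.2 RPKM) came next and overlapped. *tnni2b.2* (18.4 ± 0.23 RPKM), *tnnc1a* (9.79 ± 0.0016 RPKM) and *tnni2a.1* (0.403 ± 0.087 RPKM) were lowest. With the chromosomal length, *tnnc2* would measure 376 ± 33 RPKM at T2 and 875 ± 84 RPKM at T3. It would then be second at T2 and overlap *tnni2a.4* at T3. Within each T3 library *tnni2a.4* was still higher, with 879 and 984 RPKM against 815 and 934 RPKM.

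Over the 9 genes, 7 were called higher and 0 lower from T1 to T2, with a median log2 change of 4.25 against 0.08 over all 23028 mRNAs tested. Of all mRNAs, 12.8% were called higher and 3.45% lower in that comparison. From T2 to T3, 4 genes were called higher (*tnni1al*, *tnni2a.4*, *tnni2b.2* and *tnnc2*) and 1 lower, where 4.03% of all mRNAs were called higher and 2.11% lower. Their median change was 0.53, against -0.08 over 23161 mRNAs. From T1 to T3, 8 were called higher and 0 lower, with a median of 4.25 against 0.01 over 23133 mRNAs and background shares of 17.2% higher and 8.76% lower. That median is the value of *tnnc1a*, which depends on the 0.5 added and was 6.12 with a pseudocount of 0.1. The T1 libraries enter 2 of these comparisons and the T2 libraries 2, so the counts are not independent. Centring the libraries on their medians would lower every change from T1 to T2 by about 0.33 on the log2 scale and every change from T1 to T3 by about 0.35. The calls over all mRNAs then came to 8.58% higher and 8.99% lower at the first step, and 12.4% and 18.1% over the whole interval, while the members called kept their direction.

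Some of the calls from T1 to T2 were lost when 1 T2 library was left out. Without T2 replicate 1, 5 of the 7 genes remained called, with *tnni1b* (adjusted p = 0.0553) and *tnnc2* (adjusted p = 0.0509) just above 0.05, when 0.955% of all mRNAs were called higher. Without T2 replicate 2, *tnni2a.4* and *tnnc1b* remained and the other 5 had adjusted p between 0.0527 and 0.0622, while the log2 changes stayed between 4.04 and 5.48 for those 5. In that fit the spread comes from the T1 libraries alone, the lone T2 library is assumed to vary like them, and 0.0521% of all mRNAs were called higher.

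**Figure D4:**
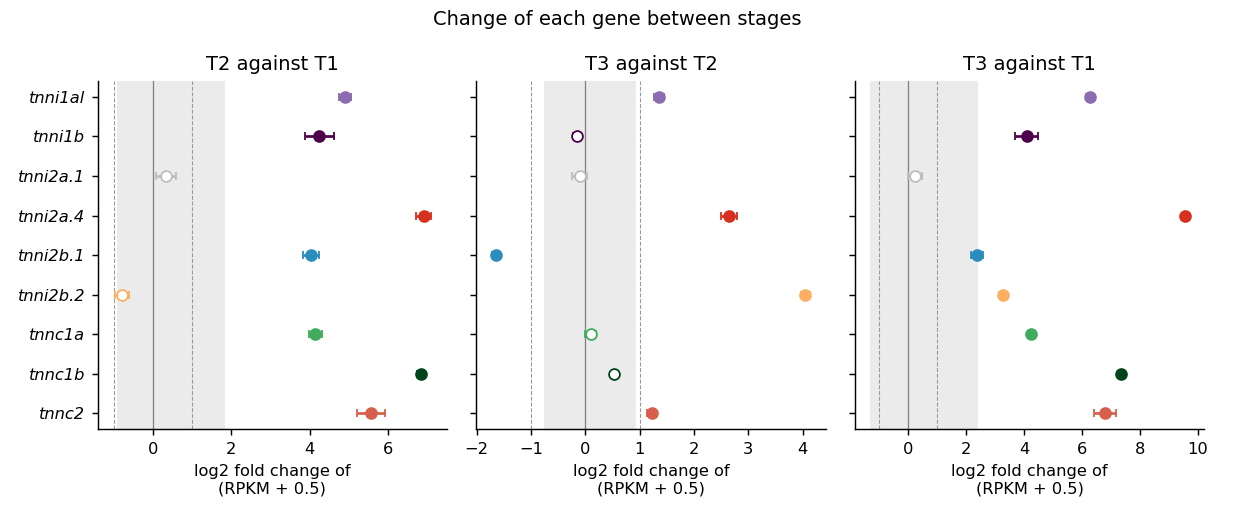
Log2 fold change of (RPKM + 0.5) for each gene in the 3 stage comparisons, with bars for the standard error of the limma fit (n = 2 libraries per stage). Filled points were called (adjusted p under 0.05 and more than 2-fold, dashed lines), open points were not, and the grey band holds the middle 90% of all mRNAs tested; *tnni2b.1* is the filled point left of 0 between T2 and T3, and the T1 comparisons of *tnni1al* and *tnnc1a* depend on the 0.5 added.

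Summed over the 6 listed genes, troponin I measured 36 and 24.6 RPKM at T1, 608 and 660 RPKM at T2, and 1113 and 1216 RPKM at T3. Troponin C summed to 6.46 and 3.5 RPKM, 379 and 402 RPKM, and 692 and 759 RPKM in the same order. The ratio of troponin I to troponin C was 5.57 and 7.03 at 10 hpf, 1.6 and 1.64 at 24 hpf, and 1.61 and 1.6 at 36 hpf. It was highest at T1, where troponin I was mainly *tnni2b.1*, and the same within the spread at T2 and T3. The chromosomal length for *tnnc2* gave lower ratios, 3.07 and 4.31 at T1, 1.1 in both T2 libraries, and 1.01 and 0.991 at T3, and on that length the T2 and T3 libraries did not overlap. With the other 7 troponin I genes added, troponin I summed to 657 and 712 RPKM at T2 and 1177 and 1272 RPKM at T3. The ratio was not taken on those sums, so its likeness at T2 and T3 holds for the 6 listed genes only. All 9 genes together took up 0.00561% and 0.00343% of gene reads at 10 hpf, 0.132% and 0.143% at 24 hpf, and 0.241% and 0.268% at 36 hpf.

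**Figure D5:**
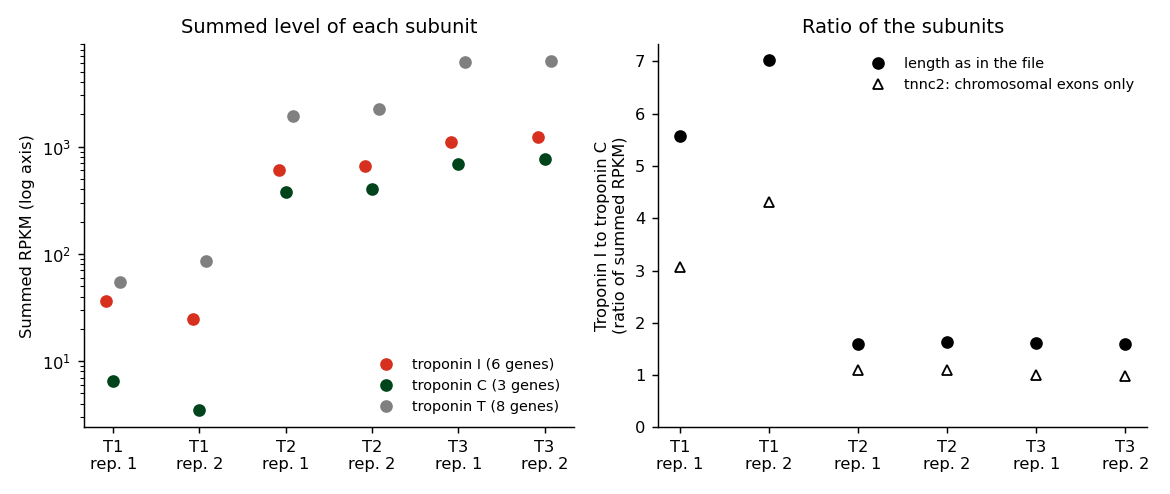
Left, summed RPKM of the 6 troponin I, 3 troponin C and 8 troponin T genes in each library on a log axis; right, ratio of summed troponin I to summed troponin C RPKM, with the deposited length (filled) and the chromosomal length (open) for *tnnc2*. The deposited-length ratio is 5.57 and 7.03 at T1 and between 1.6 and 1.64 in the 4 later libraries.

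The third subunit, troponin T, was summed over 8 genes and measured 1924 and 2251 RPKM at T2 and 6188 and 6229 RPKM at T3. Over all mRNAs, 12.8% were called higher at the first step, and 4.03% higher and 2.11% lower at the second. Of the 8 troponin T genes, 6 were called higher over the first step. From T2 to T3, 4 of 7 tested were called higher and 1 lower, namely *tnnt2c*, which went from 1001 and 1055 RPKM to 186 and 174 RPKM (log2 change -2.51, SE 0.07, limma adjusted p = 1.1e-05). *tnnt2a*, the cardiac form, had a smaller change of -0.44 (SE 0.07, limma adjusted p = 0.00413), under 2-fold. The fast form *tnnt3b* rose from 422 and 596 RPKM at T2 to 4028 and 4175 RPKM at T3.

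Genes that work with troponin were counted in the same way, beside 12.8% of all mRNAs called higher at the first step and 4.03% at the second. Of 18 genes of calcium release and reuptake, 16 were called higher at the first step and 6 at the second, with 0 lower. Among them was *atp2a1*, the fast muscle calcium pump (log2 change 7.97 from T1 to T2, SE 0.14). Of 9 thin filament actins and tropomyosins, 6 were called higher at the first step and 2 at the second, among them *actc1b* (6.12, SE 0.44) and *tpma* (5.26, SE 0.28) from T1 to T2. Among genes that set or cap the length of the thin filament, 6 of 8 tested were called higher at the first step, led by *neb* (4.44, SE 0.25), and 1 of 9 at the second. Of 6 calmodulin genes, relatives of troponin C found in all cells, 2 were called higher at the first step and 0 at the second, where *calm1b* (0.88, SE 0.08, limma adjusted p = 0.000389), *calm3a* (0.54, SE 0.07, adjusted p = 0.00148) and *calm1a* (0.50, SE 0.07, adjusted p = 0.00236) had small p but stayed under 2-fold.

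Myogenic regulators moved otherwise at the second step. From T1 to T2, 6 of 10 were called higher and *myf5*, an early myogenic factor, was called lower (-2.86, SE 0.20). Over all mRNAs, 12.8% were called higher and 3.45% lower at that step. From T2 to T3, 0 of the 10 regulators were called higher and 3 were called lower: *myog* (-2.68, SE 0.11), *mef2ca* (-1.07, SE 0.06) and *mef2d* (-1.23, SE 0.08). Over all mRNAs, 4.03% were called higher and 2.11% lower there. Of the 6 slow fibre markers 5 were called higher from T1 to T2, among them the slow myosin gene *smyhc1* (4.16, SE 0.59). Of the 7 other troponin I genes in the table, 2 of the 6 tested were called higher in the first step (*tnni1c* and *tnni1d*) and 2 of 7 in the second (*tnni2a.2* and *tnni4b.3*).

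For each member the mRNAs with the nearest profile were taken by the root mean square difference of mean-centred log2(RPKM + 0.5) over the 6 libraries, among 16560 mRNAs. *tnni2a.4* was nearest to the fast myosin heavy chain gene *myhz2* (0.19) and the myosin light chain gene *mylpfb* (0.3). *tnni1al* was nearest to *ldb3b* (0.15) and *actn3a* (0.17), which encode proteins of the sarcomeric Z-disc, and *tnni1b* to the desmin gene *desma* (0.16) and to *ch73-265d7.2* (0.16). The nearest to *tnni2b.1* were *ank2a* and *fhod3b* (both 0.17), which likewise peaked at T2, with 17.8 and 16.8 RPKM for *ank2a* at T2 and 6.64 and 7.11 RPKM at T3.

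The late gene *tnni2b.2* was nearest to *fkbp5* (0.083), which encodes a chaperone of steroid receptors, and to the lens crystallin gene *crygm2d7* (0.32). *crygm2d7* had 0.0444 and 0.128 RPKM at T1 and 0 and 0.0803 RPKM at T2. Its early profile is therefore set mainly by the added 0.5. *fkbp5* measured 0.966 and 1.4 RPKM at T1, 0.442 and 0.508 RPKM at T2, and 14 and 13.7 RPKM at T3, a dip and a rise like those of *tnni2b.2*. *tnnc1a* was nearest to *cacna1sb* (0.14), a gene for the skeletal muscle calcium channel, and to *jph1b* (0.16), which encodes a junctophilin. For *tnnc1b* they were *ngs* (0.2) and the microRNA locus *mir1-1* (0.24), for *tnnc2* it was *postnb* (0.12), and for the low gene *tnni2a.1* they were *gpx1a* (0.065) and *sema3aa* (0.082). The added 0.5 flattens the *tnni2a.1* profile, and its T1 libraries lay apart, with 4 and 17 reads. *gpx1a* (0.672 and 1.25 RPKM) and *sema3aa* (8.44 and 13.7 RPKM) differed between the T1 libraries too, so this likeness says little of stage timing. Between members, the closest profiles were those of *tnni1b* and *tnnc1a* (0.36) and those of *tnni1al* and *tnnc2* (0.42). The added 0.5 makes up nearly all of the T1 value of *tnnc1a* and *tnni1al*. Their likeness to any gene, member or not, therefore does not cover the size of the rise from T1.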

How the data were processed

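Whole AB embryos at 3 stages gave 6 libraries. Per the methods, the authors aligned reads with STAR, counted them with featureCounts and deposited RPKM per gene, and the submitters' notes name GRCz11. Strand use in counting and the handling of multi-mapping reads are not given in the sources used here. Members and lists were chosen with earlier results of these data known.

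The 27018 mRNAs were tested on log2(RPKM + 0.5) with limma 3.58.1 (trend and robust) in R 4.3.3, using the 4 libraries of each pair of stages and mRNAs of at least 0.1 RPKM in at least 2 of these. A gene was called at a Benjamini-Hochberg adjusted p under 0.05 and an absolute log2 change above 1. Whole reads were recovered from the RPKM values and all values (100%) were whole within 0.01 read. All 9 members were tested in each comparison. Named genes were the members, the list genes with the largest called changes from T1 to T2 (up to 3 a list) or called against their list, and the 2 nearest mRNAs of each member, of which 1 is not reported here. Genes named as called from T2 to T3, *nppa*, *tnni1c* at the later stages, *tnnt3b*, *tnnt2a* and the calmodulin genes were chosen after their values were seen. Of 110 list genes, 2 were not matched. Gene names of the newer annotation come from RefSeq. The scripts were tested on simulated data. Alternatives covered the pseudocount, filter, scaling, model, gene set, replicate block, voom on recovered reads and each library left out.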

Additional observations from a re-analysis of the deposited data

How the results depend on the processing

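When 1 library was left out, every member called in the main fits kept the direction of its change. Fewer members were called from T1 to T2 without either T2 library, and calls over all mRNAs fell in the same fits. The replicate numbers were not taken as pairs in the main fits. Deviations of same-numbered libraries had correlations of 0.01, -0.07 and -0.05, which showed no pairing, though a small shared effect would go unseen. A replicate block left the member counts at 7, 5 and 8 and moved all calls from T1 to T2 from 3748 to 3868. With the block, 13.2% of all mRNAs were called higher and 3.62% lower from T1 to T2. The shares were 4.04% and 2.12% from T2 to T3, and 17.4% and 8.95% from T1 to T3.

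Median centring, which removes a shift of 0.33 (log2) between the T1 and T2 medians and 0.35 between T1 and T3, gave 1976 mRNAs higher and 2070 lower from T1 to T2 in place of 2953 and 795, and 2879 and 4177 from T1 to T3 in place of 3968 and 2026. Quantile normalization gave 2119 and 1422, and 3113 and 2888. Under both, the members called in the main analysis kept their direction and their calls. The shift of medians is that of all mRNAs tested. Over 11894 well expressed genes the median log2 deviation ran the other way. It was 0.123 and 0.0759 in the T1 libraries, 0.0368 and 0.0125 at T2, and -0.126 and -0.115 at T3. From T2 to T3, voom called 2010 higher and 1427 lower in place of 933 and 488, a pseudocount of 0.1 called 1690 and 1128, and a pseudocount of 1 called 618 and 314. From T1 to T2 voom called 4516 and 1218. Without T2 replicate 1 or 2, 220 and 12 were called higher and 22 and 0 lower. Without T3 replicate 1 or 2, the T1 to T3 comparison called 2572 and 2521 higher.

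*tnni2a.1* reversed sign from T1 to T2 after quantile normalization (-0.02), and from T1 to T3 after median centring (-0.11, also with all 6 libraries, a setting chosen after seeing the data), quantile normalization (-0.12) or without T1 replicate 1 (-0.08). With 1 library left out, its change over the whole interval ranged from -0.08 to 0.56. The T2 to T3 change ranged from -0.22 to 0.01 for *tnni2a.1* and from -0.04 to 0.24 for *tnnc1a*, and both reversed without T2 replicate 2. None of these passed the test, and the cause was not tested. The tnni2 share at T2 was 91.5% by recovered reads and 83.8% over all troponin I genes, and at T3 it was 88.8% over all troponin I genes. With 2 libraries per stage, the T1 values of *tnni1al* (0 reads) and *tnnc1a* (2 reads each) set only a bound or a wide interval.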

Other observations

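Markers of other tissues also rose over these stages: all 5 neuron markers and all 5 red blood cell markers were called higher from T1 to T2, with medians of 3.99 and 5.35 on the log2 scale, as were all 4 endothelial markers (2.11). Of 3 epidermal markers, 0 were called higher and 1, the claudin gene *cldna*, was called lower (-1.82, SE 0.24). From T2 to T3, 4 of the 5 neuron markers and 3 of the 5 red blood cell markers were called higher, and 0 of the 4 endothelial markers. Over all mRNAs, 12.8% were called higher and 3.45% lower from T1 to T2, and 4.03% and 2.11% from T2 to T3.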
